A study of Homo sapiens with 16 samples.

Results

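Most γ-tubulin peaks on the autosomes were packed in clusters, and the peaks described here are the minority that stood alone. A peak was called isolated when it lay on chromosomes 1 to 22 and no other peak of its own list lay within 100000 bp. By this rule 458 of the 2495 autosomal peaks, and of the 2962 peaks in all, were isolated. The members were chosen by the measured positions of the peaks, so the numbers, the spacing and the other readouts of these peaks are given as descriptions, with no test.

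MCF10A and γTubulinsh-MCF10A cells were compared by ChIP-seq, in which γ-tubulin is pulled out of sheared nuclei with an antibody and the DNA that comes with it is sequenced. MCF10A is a line of human breast epithelial cells that is not tumorigenic. γTubulinsh-MCF10A cells are MCF10A cells with a stably transfected γ-tubulin shRNA, kept under Zeocin selection. An shRNA lowers a protein without removing it, so these cells are not a null control. Both populations went through a double thymidine block, which holds cells at the start of S phase, and were harvested 1 h or 2 h after release. Each of the 4 conditions had 2 ChIP libraries and 2 libraries of whole cell extract (WCE), 16 libraries in all. The deposited peaks of a condition form 1 list that pools both of its ChIP libraries, so no value below has a replicate error and no difference between conditions was tested.

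γ-Tubulin is best known as the protein that nucleates microtubules at the centrosome. A pool of it is also found in the nucleus, where it has been linked to S-phase gene expression through E2F transcription factors. A protein bound at separate places of the genome gives separate peaks in ChIP-seq. Stretches of repeated sequence, such as those around centromeres and at chromosome ends, can collect reads in the ChIP and in the control alike, which is why the control is given beside each peak below.

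The isolated peaks numbered 220 for 1 h MCF10A cells, 58 for 1 h γTubulinsh-MCF10A cells, 160 for 2 h MCF10A cells and 20 for 2 h γTubulinsh-MCF10A cells. They made up 25.9% of 850, 22.7% of 256, 12.1% of 1317 and 27.8% of 72 autosomal peaks in these lists. MCF10A cells thus had fewer isolated peaks at 2 h than at 1 h although their list was longer at 2 h. With a minimum length of 200 bp, set before isolation was judged, the direction turned, to 22 isolated peaks at 1 h against 32 at 2 h. The lists differ in length, and what part this had in the percentages was not tested. The depth of each library is not given in the lists.

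Most isolated peaks were far from any neighbour. The nearest peak of the same list was over 1 Mb away for 175 of the 220 peaks of 1 h MCF10A cells, for 55 of 58 in 1 h γTubulinsh-MCF10A cells, for 109 of 160 in 2 h MCF10A cells and for 18 of 20 in 2 h γTubulinsh-MCF10A cells. When the peaks of the other lists also counted as neighbours, unless they overlapped the peak itself, 200, 46, 150 and 9 of them remained isolated, 405 of 458 in all. The γTubulinsh-MCF10A 2 h list therefore stands apart here, since 11 of its 20 isolated peaks had peaks of another condition close by and were alone in their own list only. In that list 7 of the 20 were the only peak on their chromosome, against 3 in 1 h γTubulinsh-MCF10A cells and 1 in 1 h MCF10A cells. It was also the shortest list, with 72 autosomal peaks against 256 to 1317 in the others. What part its length had in both traits was not tested. In total, 20 of the 458 isolated peaks (4.37%) lay inside a cluster of at least 10 peaks of the pooled lists, beside 75.2% of all autosomal peaks. At 1 h it was 4 of 220 in MCF10A and 9 of 58 in γTubulinsh-MCF10A cells, beside 71.1% and 70.3% of all autosomal peaks. At 2 h it was 1 of 160 in MCF10A and 6 of 20 in γTubulinsh-MCF10A cells, beside 79.7% and 56.9%. The rule leaves an isolated peak no near neighbour in its own list, so it could join such a cluster only through peaks of other lists. The lower shares among isolated peaks therefore follow from the rule and are no separate trait of these peaks.

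The rule had few cases near its limit. Among the peaks just outside it, the one at chr18:10045-10353 of 1 h MCF10A cells had its nearest neighbour 97520 bp away, and the one at chr3:90326930-90327049 of 2 h MCF10A cells had it 90729 bp away. Just inside were the peaks at chr9:72653201-72653418 and chr9:72754216-72754486 of 1 h MCF10A cells, 100797 bp apart, and the one at chr6:26055992-26056142 of 2 h MCF10A cells, with 101538 bp to its neighbour.

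Isolated peaks were mostly found in a single list. Of the 458, 280 overlapped no peak of another list by even 1 bp, 125 were present in 2 lists, 43 in 3 and 10 in all 4, the peak's own list included. With a minimum length of 200 bp, 17 of 22, 12 of 17 and 7 of 7 were shared in 1 h MCF10A, 1 h γTubulinsh-MCF10A and 2 h γTubulinsh-MCF10A cells. It was 11 of 32 in 2 h MCF10A cells, so that most were then shared in the first 3 of these. The shares of all autosomal peaks with that minimum were not computed, so this is not shown to be particular to isolated peaks. Without that minimum, in 1 h MCF10A cells, 68 of 220 (30.9%) overlapped a peak of another list, compared with 74.5% of all autosomal peaks of that list. For 1 h γTubulinsh-MCF10A cells it was 30 of 58 (51.7%) compared with 81.2%. In 2 h MCF10A cells, the 64 of 160 (40%) were close to the 44.1% of the whole list, and in 2 h γTubulinsh-MCF10A cells the 16 of 20 (80%) were above the 69.4% of the whole list. The share among isolated peaks thus lay well below that of the whole list at 1 h in both populations, and furthest below it in MCF10A cells. Presence in 3 or 4 lists was seen for 13 of 220, 16 of 58, 14 of 160 and 10 of 20, beside 20%, 71.5%, 12.4% and 51.4% of all autosomal peaks in the same order. The lists to overlap with differ in length, so the percentages of the 4 lists are not measures of 1 quantity.

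**Figure D1:**
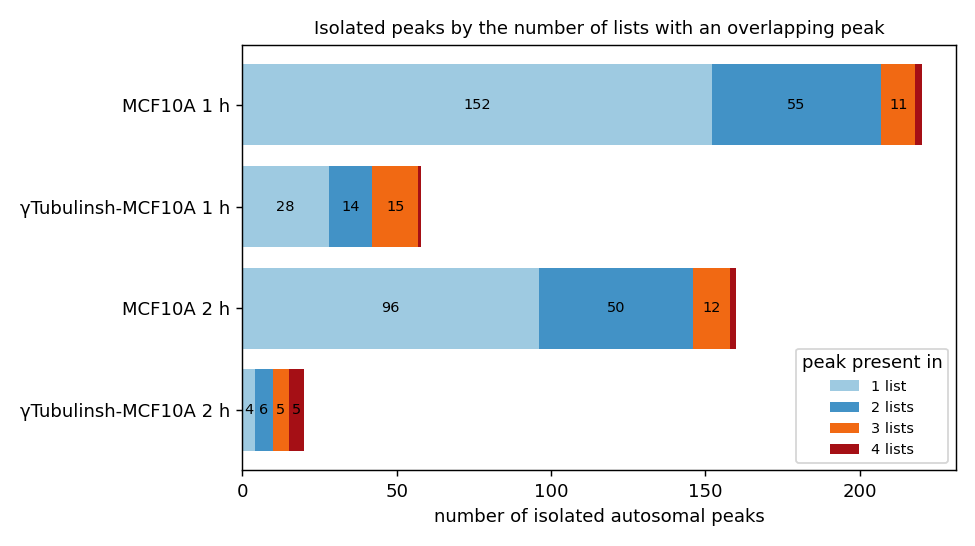
Number of isolated autosomal peaks (horizontal axis) in each of the 4 lists, divided by how many of the 4 lists had a peak overlapping by at least 1 bp, the own list included. In MCF10A cells the segment present in 1 list is the longest, with 152 of 220 peaks at 1 h and 96 of 160 at 2 h, whereas it holds 4 of the 20 peaks of 2 h γTubulinsh-MCF10A cells.

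By partner, the isolated peaks of MCF10A cells were met most often in the same cells at the other time. Of the 220 peaks of 1 h MCF10A cells, 61 (27.7%) overlapped a peak of 2 h MCF10A cells and 18 (8.18%) a peak of 1 h γTubulinsh-MCF10A cells, compared with 89.0% and 25.1% of the other autosomal peaks of that list. Of the 160 of 2 h MCF10A cells, 57 (35.6%) were met at 1 h, 17 (10.6%) in 1 h γTubulinsh-MCF10A cells and 6 (3.75%) in 2 h γTubulinsh-MCF10A cells, compared with 42.8%, 13.4% and 3.28% of the others. The isolated peaks were thus far below the others of their list at 1 h and near them at 2 h. Of the 58 of 1 h γTubulinsh-MCF10A cells, 22 (37.9%) were met in 1 h MCF10A cells and 21 (36.2%) at 2 h, compared with 82.8% and 88.4% of the others. Of the 20 of 2 h γTubulinsh-MCF10A cells, 14 (70%) overlapped a peak of 2 h MCF10A cells, compared with 61.5% of the others, and 9 of these 14 partners lay in a cluster of that list.

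Isolated peaks that touch each other were merged into 376 places. A peak of any kind was listed in 1 condition at 280 of these places, in 2 at 71, in 3 at 19 and in all 4 at 6. Peaks of 1 h MCF10A cells alone accounted for 152 places, 2 h MCF10A cells alone for 96, 1 h γTubulinsh-MCF10A cells alone for 28 and 2 h γTubulinsh-MCF10A cells alone for 4. These were 69.1%, 60%, 48.3% and 20% of the isolated peaks, beside 25.5%, 55.9%, 18.8% and 30.6% of all autosomal peaks that overlapped no other list. A further 51 places were listed in MCF10A cells at both times and in no list of γTubulinsh-MCF10A cells. Partners in the shorter γTubulinsh-MCF10A lists were few for the other autosomal peaks as well. They were met for 25.1% (1 h) and 3.81% (2 h) of those of 1 h MCF10A cells, and for 13.4% and 3.28% of those of 2 h MCF10A cells. A place missing from a list did not pass the peak caller there. The lists hold no value for it, so lower binding and a background too high for a call cannot be told apart.

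The authors' fold enrichment and p-value at each summit are both functions of the reads over it and of the control background, and both quantities were solved from them. ChIP reads are the number of immunoprecipitated fragments over the summit. Control reads are the WCE background there in units of 1 control read, and are not whole where the peak caller averaged the control over a wider window. They cannot fall below the genome-wide background of the list, which was 1.74 in 1 h MCF10A cells. A value at this floor is not a local count, and the local control there may have been lower. The median isolated peak had 33 ChIP reads (quartiles 24 and 52) over 7 control reads (quartiles 4 and 16). Relative to the lowest background of its list, the median control background was 3.46 times in 1 h MCF10A cells, 7.73 times in 1 h γTubulinsh-MCF10A cells, 3.67 times in 2 h MCF10A cells and 17.5 times in 2 h γTubulinsh-MCF10A cells. The corresponding medians of the other autosomal peaks were 14.4, 27.7, 6.81 and 4.71 times. Isolated peaks thus sat on a lower control than clustered ones in 3 lists, and on a higher one in 2 h γTubulinsh-MCF10A cells.

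Few isolated peaks lay on a control near the lowest of the list. A background under 1.5 times the lowest was found for 39 of 220 peaks (17.7%) of 1 h MCF10A cells, beside 5.88% of all autosomal peaks, and for 7 of 58 (12.1%) of 1 h γTubulinsh-MCF10A cells, beside 7.03%. At 2 h it was found for 20 of 160 (12.5%) of MCF10A cells, beside 8.81%, and for 2 of 20 (10%) of γTubulinsh-MCF10A cells, beside 34.7%. At the other extreme, 42, 23, 21 and 13 isolated peaks had a background at least 10 times the lowest, in the order MCF10A and γTubulinsh-MCF10A at 1 h, then MCF10A and γTubulinsh-MCF10A at 2 h. These were 19.1%, 39.7%, 13.1% and 65% of the isolated peaks, beside 53.6%, 77.3%, 34.3% and 47.2% of all autosomal peaks, so 2 h γTubulinsh-MCF10A cells alone had the higher share among isolated peaks.

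**Figure D2:**
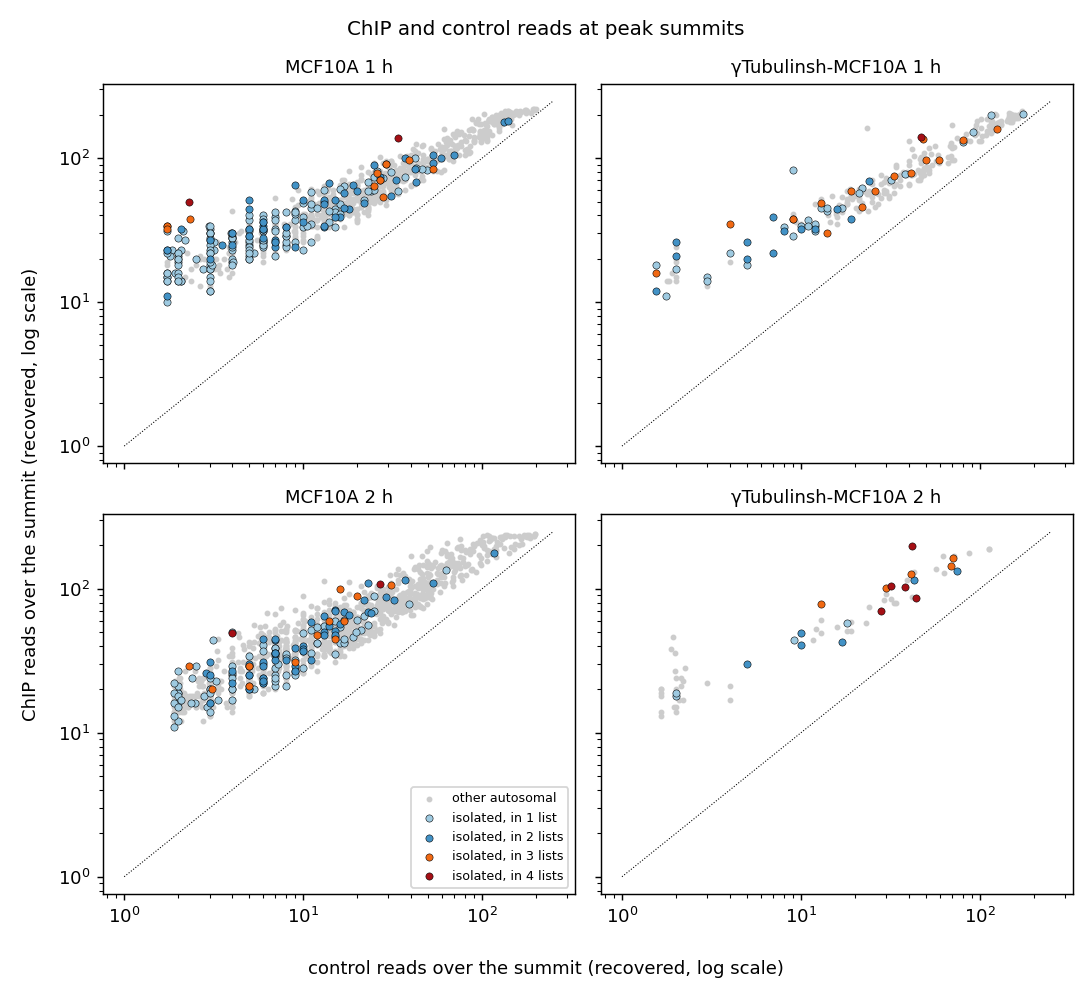
ChIP reads (vertical axis) against control reads (horizontal axis) over the summit of every autosomal peak, both recovered from the deposited values and on log scales, in 1 panel per list. Isolated peaks are coloured by the number of lists they are in, grey points are the other autosomal peaks, and the dotted line marks equal numbers. The isolated peaks of MCF10A cells reach 139 control reads at 1 h and 117 at 2 h, with upper quartiles of 14 and 15. The other autosomal peaks reach 200 and 197, with upper quartiles of 61 and 32. Of the 20 isolated peaks of 2 h γTubulinsh-MCF10A cells, 13 have a background at least 10 times the lowest.

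Fold enrichment was modest. Its median was 4.97 for isolated peaks of 1 h MCF10A cells, 3.53 for 1 h γTubulinsh-MCF10A cells, 4.45 for 2 h MCF10A cells and 2.97 for 2 h γTubulinsh-MCF10A cells. A fold of at least 5 was reached by 107 of 220 (48.6%), 11 of 58 (19%), 58 of 160 (36.2%) and 3 of 20 (15%), beside 20.2%, 8.98%, 28.2% and 34.7% of all autosomal peaks of these lists. Over the 4 lists together the median was 4.46 for isolated and 3.25 for other autosomal peaks.

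Among the isolated peaks of the 4 lists together, the shared percent was higher where the control background was higher. Of the isolated peaks with a background under 1.5 times the lowest, 13 of 68 (19.1%) overlapped a peak of another list. It was 23 of 102 (22.5%) from 1.5 to under 3 times, 77 of 189 (40.7%) from 3 to under 10 times and 65 of 99 (65.7%) at 10 times or more. With all ranges together it was 38.9% of isolated peaks, beside 59.0% of all autosomal peaks. The shares of all autosomal peaks in each range were not computed, so this order is not shown to be particular to isolated peaks. Peaks in 1 list had a median of 28 ChIP reads on a background 3.14 times the lowest, and peaks in all 4 lists a median of 103.5 reads on 19.4 times the lowest. The median fold went from 4.75 in 1 list to 4.08 in 2 and 3.59 in 3, and was 3.95 in all 4. These medians pool lists of different levels, and the order did not hold within every list. In 1 h γTubulinsh-MCF10A cells, peaks in 2 lists had fewer ChIP reads than peaks in 1 list (medians of 31.5 and 36), fewer control reads (7.5 and 12) and a higher fold (4.15 and 3.53). The 2 peaks of each MCF10A list that were present in all 4 lists had a median fold of 11.4 at 1 h and 7.68 at 2 h, above the 5.35 and 4.50 of the peaks in 1 list. By background, the lowest range was more often shared than the next in 1 h MCF10A cells, with 8 of 39 (20.5%) and 9 of 60 (15%), and in 1 h γTubulinsh-MCF10A cells, with 4 of 7 and 1 of 4. What part the control had in the sharing was not tested.

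**Figure D3:**
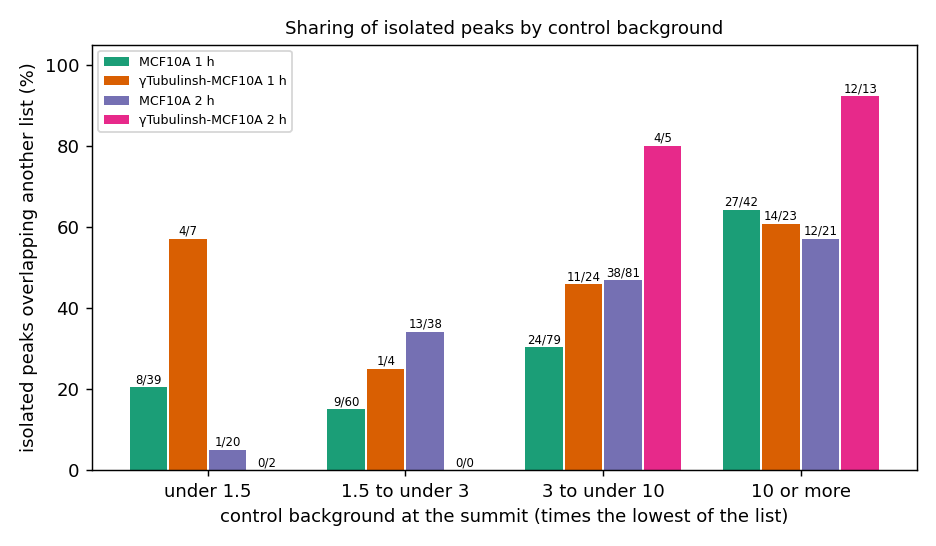
Percent of isolated peaks that overlap a peak of another list (vertical axis) in 4 ranges of control background at the summit, relative to the lowest of the list (horizontal axis), with 1 bar per list and the counts above it. In 1 h MCF10A cells the bars go from 8 of 39 in the lowest range to 27 of 42 in the highest.

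Where a place was isolated in several lists, the ChIP reads were close to each other. At the 68 places isolated in at least 2 lists, the highest number of ChIP reads over the lists was a median of 1.15 times the lowest (quartiles 1.08 and 1.25), and stayed within 1.5 times at 61 places. Control reads differed by a median of 1.45 times (quartiles 1.20 and 1.80), and by more than the ChIP reads at 53 of the 68. Control reads are fewer, so their counting error is larger, and a place had to pass the peak caller in each list, which itself limits how far its ChIP reads can differ. Reads were not scaled for the depth of the lists, and control values at the floor of a list entered these ratios as they were. The summits of the lists lay a median of 10 bp apart, within 20 bp at 51 places and at most 166 bp apart.

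For MCF10A cells the 2 times could be set side by side at 54 places. ChIP reads at 2 h were a median of 0.928 of those at 1 h, higher at 16 places and lower at 35. Control reads were a median of 0.818, higher at 13 and lower at 41. The fold was a median of 1.07 times that at 1 h, higher at 29 places and lower at 25, so neither time had the higher fold throughout.

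The 1 h lists of both populations shared 17 such places. The median was 48 ChIP reads in MCF10A cells and 39 in γTubulinsh-MCF10A cells, with more reads in MCF10A cells at 7 of the 17. Median control reads were 5 in MCF10A cells and 13 in γTubulinsh-MCF10A cells, and the fold was higher in MCF10A cells at 12 places, with medians of 5 and 3.59. At places isolated in both, then, the fold was mostly lower in γTubulinsh-MCF10A cells while the ChIP reads were lower in only some of them.

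A single place was isolated in all 4 lists, on chromosome 2 at chr2:109815809-109816336. It had 138 ChIP reads over 34 control reads in 1 h MCF10A cells, 141 over 47 in 1 h γTubulinsh-MCF10A cells, 108 over 27 in 2 h MCF10A cells and 70 over 28 in 2 h γTubulinsh-MCF10A cells. The fold was 4.89, 3.56, 4.37 and 2.31 in the same order, and the score (10 times the −log10 of the q-value) 431, 295, 300 and 44. The 3 higher lists had similar ChIP reads, and 2 h γTubulinsh-MCF10A cells the lowest reads, fold and score. At 528 bp it was also among the longest isolated peaks. Of the other 5 places with a peak in every list, 4 were isolated in 2 h γTubulinsh-MCF10A cells alone. There chr2:89869791-89869914 had 104 ChIP reads over 32 control reads, chr10:42356663-42356845 had 103 over 38 and chr20:29829486-29829666 had 86 over 44, with folds of 3.004, 2.52 and 1.83, and all lay among clustered peaks of the other conditions.

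In addition, 12 places were isolated in exactly 3 lists, 9 of them in both MCF10A lists and 1 h γTubulinsh-MCF10A cells. Around chr9:72653037-72653452 there were 97, 97 and 99 ChIP reads in 1 h MCF10A cells, 1 h γTubulinsh-MCF10A cells and 2 h MCF10A cells. The control there was 39, 59 and 16 reads, and the fold 3.02, 1.97 and 6.58, so the fold moved with the control and not with the ChIP. At chr7:34307281-34307453 the ChIP reads were 91, 59 and 89, lowest in γTubulinsh-MCF10A cells. At chr11:102909793-102909933 they were 70, 75 and 48, lowest in 2 h MCF10A cells. At chr12:11301269-11301452 and chr5:59868158-59868335 they were 64, 59 and 60 and 54, 46 and 45, with little between the lists. Other combinations were found at 3 places. There was no peak of 1 h MCF10A cells at chr13:110076542-110076708, whereas 1 h γTubulinsh-MCF10A cells had 97 ChIP reads over 50 control reads, 2 h MCF10A cells 106 over 31 and 2 h γTubulinsh-MCF10A cells 101 over 30. At chr1:156186245-156186624 the reads were higher in γTubulinsh-MCF10A cells, with 136 at 1 h and 163 at 2 h, than in 1 h MCF10A cells, with 84. At chr18:2251630-2251806 there were 79 reads in 1 h MCF10A cells, 60 at 2 h and 79 in 2 h γTubulinsh-MCF10A cells.

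**Figure D4:**
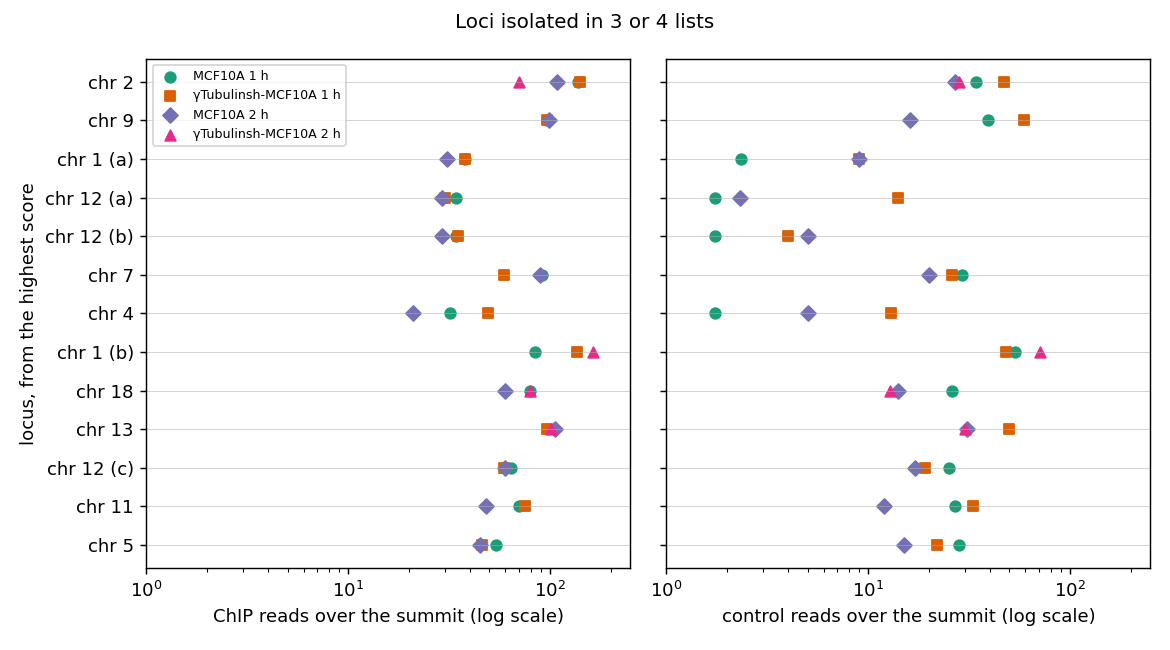
ChIP reads (left panel) and control reads (right panel), both over the summit and on log scales, at the 13 places isolated in 3 or 4 lists, ordered from the highest score and named by chromosome. Each symbol is 1 list. At most places the symbols lie closer together in the ChIP panel than in the control panel, as at the 53 of 68 places counted in the text.

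In 1 h MCF10A cells the isolated peaks with the 5 highest folds all lay at chromosome ends. They were chr5:10019-11819 at 17.8, chr12:95462-95779 and chr12:133841561-133841883 both at 14.6, chr4:191043913-191044226 at 13.8 and chr1:10042-10283 at 13.5. In hg19 the first bases of most chromosomes are undetermined, so these starts lie at or near the beginning of the determined sequence, which on many arms consists of telomere repeats and of subtelomeric repeats shared between arms. In all, 11 isolated peaks on 5 chromosomes (1, 4, 5, 7 and 12) began in the first 100 kb, 5 of 1 h MCF10A cells, 3 of 1 h γTubulinsh-MCF10A cells and 3 of 2 h MCF10A cells. Their folds ran from 2.46 to 17.8 with a median of 9.59, compared with a median of 4.45 for the other isolated peaks. They had 11 to 50 ChIP reads, over 1.74 to 14 control reads, and 7 of the 11 had a background under 1.5 times the lowest. The 5 highest folds of 1 h MCF10A cells came with 32 to 50 ChIP reads over 1.74 to 2.34 control reads. The medians of all isolated peaks of that list were 31 ChIP reads and 6 control reads. These high folds thus came with a low control, and their ChIP reads were not low for the list.

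Across conditions, ChIP reads were closer than control reads at 4 chromosome ends listed in 3 conditions. At the start of chromosome 12 the ChIP reads were 34 in 1 h MCF10A cells, 30 in 1 h γTubulinsh-MCF10A cells and 29 in 2 h MCF10A cells. The control reads there were 1.74, 14 and 2.30, and the folds 14.6, 2.46 and 9.85. The lower fold of the 1 h γTubulinsh-MCF10A list was thus seen beside a higher control. The 1.74 is the floor of the 1 h MCF10A list, here and at the ends below, so how far the local controls differed is not known. At the other end of chromosome 12 the ChIP reads were 34, 35 and 29 and the control reads 1.74, 4 and 5. At the start of chromosome 1 they were 38, 38 and 31 over 2.34, 9 and 9 control reads, with folds of 13.5, 4.62 and 3.56. The last peak of chromosome 4 had 32, 49 and 21 ChIP reads over 1.74, 13 and 5, highest in γTubulinsh-MCF10A cells. At none of these 4 ends did 1 h γTubulinsh-MCF10A cells have the fewest ChIP reads.

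Chromosome 5 had the longest isolated peaks, 1801 bp in 1 h MCF10A cells and 1783 bp at 2 h, over its first determined bases. ChIP reads at this place were 50 in 1 h MCF10A cells, 55 in 1 h γTubulinsh-MCF10A cells, 49 in 2 h MCF10A cells and 61 in 2 h γTubulinsh-MCF10A cells. The control reads were 2.31, 15, 4 and 12.9. In both γTubulinsh-MCF10A lists the place was split into 2 peaks and so was not isolated there. Smaller ends showed the same kind of peak. The start of chromosome 7 had 11 ChIP reads in 1 h MCF10A cells (chr7:10037-10147, fold 5) and 21 in 1 h γTubulinsh-MCF10A cells (chr7:10017-10135, fold 8.29). The last peak of chromosome 3 had 23 reads in 1 h MCF10A cells (chr3:197900698-197900876, fold 10) and 26 in 1 h γTubulinsh-MCF10A cells (chr3:197900710-197900877, fold 10.2). At the last peaks of chromosome 1, both 1 h lists had a pair of peaks close together, and 2 h MCF10A cells a lone one at chr1:249240150-249240275 with 20 ChIP reads and a fold of 5.59.

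Within 1 Mb of the first base of a chromosome lay 13 of 458 isolated peaks (2.84%), beside 49 of all 2495 autosomal peaks (1.96%). At 1 h it was 7 of 220 (3.18%) beside 1.76% in MCF10A cells and 3 of 58 (5.17%) beside 3.52% in γTubulinsh-MCF10A cells. At 2 h it was 3 of 160 (1.88%) beside 1.44% in MCF10A cells and 0 of 20 beside 8.33% in γTubulinsh-MCF10A cells. The lengths of the chromosomes were not given, so the largest peak end of any list stood for the other end, and a chromosome's last peak is near it by construction. With this stand-in, 47 isolated peaks lay within 1 Mb of either end. They were 10.3% of all isolated peaks, beside 128 of all 2495 autosomal peaks (5.13%). By list it was 20 of 220 (9.09%) beside 3.53% of all autosomal peaks in 1 h MCF10A cells, 9 of 58 (15.5%) beside 6.64% in 1 h γTubulinsh-MCF10A cells, 15 of 160 (9.38%) beside 5.47% in 2 h MCF10A cells and 3 of 20 (15%) beside 12.5% in 2 h γTubulinsh-MCF10A cells. By this measure the share was above that of the whole list in each condition. Of the 47 peaks, however, 34 counted through the stand-in, where a last peak is near by construction. The stand-in lay at 14359311 bp on chromosome 21 and at 44813474 bp on chromosome 19, and its distance to the true ends was not known. The comparison therefore cannot tell whether isolated peaks lie nearer to chromosome ends than other peaks.

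Most isolated peaks with the 5 highest scores of a list were shared, but away from the ends some were in a single list. The highest score of 1 h γTubulinsh-MCF10A cells, 490, belonged to chr12:127650489-127650619, with 83 ChIP reads over 9.01 control reads and a fold of 9.94, and no other list had a peak there. In 2 h MCF10A cells the 2 highest scores, 418 at chr9:72653037-72653452 and 363 at chr6:30218463-30218604, were of peaks present in 3 and 2 lists. Below them, chr2:66438233-66438353 had 50 reads over 4, a fold of 11.2 and a score of 333. The peak at chr9:69814237-69814360 had 44 reads over 3.12, a fold of 11.9 and a score of 312. These last 2 peaks were in that list alone. Their scores were above 297.5, the median of the isolated peaks present in all 4 lists, although no other condition had a peak there. That median rests on 10 peaks from 6 places, so some places enter it more than once. It also pools the lists, and 5 of the 10 were of 2 h γTubulinsh-MCF10A cells, with a median score of 95. In 1 h MCF10A cells, chr10:56833130-56833259 had 65 reads over 9, a fold of 7.99 and a score of 322, and chr4:19080195-19080364 had 51 reads over 5, a fold of 10.3 and a score of 314, each shared with 1 other list.

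In 2 h γTubulinsh-MCF10A cells 3 isolated peaks reached a fold of 5. The last peak of chromosome 22, chr22:51198350-51198466, had 19 ChIP reads over 2 control reads and a fold of 6.31, and chr13:98323436-98323550 had 18 over 2 and a fold of 5.99, both in this list alone. The third, chr18:2251645-2251771, had 79 over 12.9 and a fold of 5.44, and was present in 3 lists. The highest score of its isolated peaks, 510, was at chr21:9825983-9826324, with 197 reads over 42 and a fold of 4.35. A peak was listed in every condition there, and in the others it lay among neighbours.

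Isolated peaks were short. The peak caller reports no peak under about the length of a DNA fragment, and the shortest peaks of the lists were 110 bp in 1 h MCF10A cells, 106 bp in 1 h γTubulinsh-MCF10A cells, 120 bp in 2 h MCF10A cells and 115 bp in 2 h γTubulinsh-MCF10A cells. Isolated peaks had median lengths of 125, 129, 132 and 126.5 bp in these lists, against 173.5, 146.5, 198 and 159.5 bp for the other autosomal peaks. At most 20 bp over the shortest were 130 of 220 (59.1%), 27 of 58 (46.6%), 98 of 160 (61.2%) and 12 of 20 (60%), beside 34.9%, 35.5%, 27.1% and 40.3% of all autosomal peaks. Isolated peaks were thus nearer to the shortest call than their lists as a whole in every condition. A length of 200 bp or more was reached by 15 (6.82%), 9 (15.5%), 16 (10%) and 3 (15%) of them, beside 28.9%, 20.7%, 44.5% and 19.4% of all autosomal peaks.

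**Figure D5:**
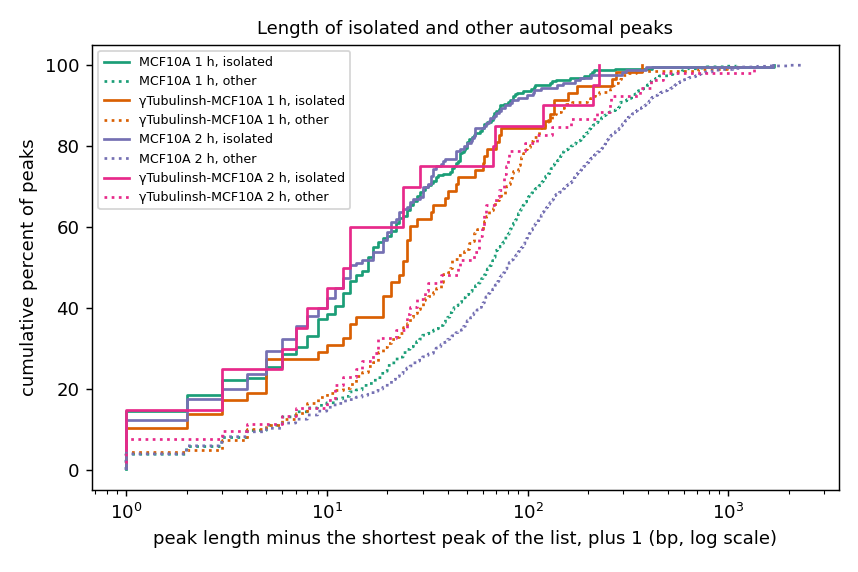
Cumulative percent of peaks (vertical axis) by length beyond the shortest peak of the list, with 1 bp added for the log axis (horizontal axis, bp). Solid lines are isolated and dotted lines other autosomal peaks, with 1 colour per list, and in each colour the solid line lies above the dotted one over most of the range.

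Every autosome held at least 3 isolated peaks. Numbers were highest on chromosome 4 with 39, chromosome 1 with 37 and chromosomes 2 and 10 with 36 each, but on chromosomes 2, 4 and 10 these were 10.4%, 8.94% and 10.3% of the peaks there. On chromosome 16 only 5 of 251 peaks (1.99%) and on chromosome 21 only 4 of 98 (4.08%) were isolated. The opposite was seen on chromosomes 13 and 15, where all 10 and all 12 peaks were isolated, and on chromosome 12, with 25 of 27 (92.6%). Chromosome 3 with 28 of 41 (68.3%) and chromosome 9 with 35 of 55 (63.6%) followed.

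By condition, chromosome 12 carried 8 isolated peaks of 1 h MCF10A cells, 5 of 1 h γTubulinsh-MCF10A cells, 11 of 2 h MCF10A cells and 1 of 2 h γTubulinsh-MCF10A cells. Chromosome 3 carried 19, 2, 7 and 0 in the same order, and chromosome 9 carried 16, 2, 16 and 1. 2 h γTubulinsh-MCF10A cells had no isolated peak on chromosomes 3, 4, 5, 6, 7, 14, 15, 16 and 19. On chromosome 6, within the stretch of the major histone genes, 1 peak of 1 h γTubulinsh-MCF10A cells was isolated, chr6:26157611-26157845, with 16 ChIP reads on the lowest background of the list and a fold of 7.45. In the same stretch 1 peak of 2 h MCF10A cells was isolated, chr6:26055992-26056142, with 25 ChIP reads over 8 control reads and a fold of 3.21. The genes nearest to the isolated peaks were not analysed here, because the annotation at hand was of another build than hg19.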

How the data were processed

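The deposited narrowPeak lists, 1 for each of MCF10A and γTubulinsh-MCF10A cells at 1 h and 2 h, were used. Per the labels and methods, the authors mapped reads with Bowtie 1.0.0 to hg19, keeping uniquely placed reads, and called peaks with MACS2 2.1.1. Bedtools 2.17.0 is also named. Both ChIP libraries of a condition were pooled. The deposited score equals the −log10 q-value multiplied by 10 and truncated. The authors' fold is a ratio of ChIP pileup to control background at the summit, each with 1 added, and the −log10 p-value is theirs too. The methods name a differential tool with a minimum length of 200 bp, whereas these lists hold shorter peaks and were read as calls against the control.

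Isolation, overlap by 1 bp, lengths and distances were computed in Python 3.11.15 (pandas 2.3.3, numpy 2.4.6, scipy 1.17.1), and figures with matplotlib 3.10.9. ChIP pileup and control background were solved from fold and Poisson p-value for all 2962 peaks (−log10 p within 0.001). The step was tested on simulated data. The pileup of γTubulinsh-MCF10A cells at 2 h was divided by a scale of 0.943. Control reads came out whole within 0.02 at 393 of 458 isolated peaks. Library depth is not stated in the lists. The members and lists were chosen with earlier results of these data known. A rule picked the peaks with the 5 highest scores or folds of a list and those in all 4 lists. It also picked the 3 longest and the 3 nearest to a chromosome end. Not all of these are named in the text, and all other named peaks were chosen after their values were seen. Nearest genes, planned gene lists and sequences need hg19, which was not at hand, and were not analysed here.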

Additional observations from a re-analysis of the deposited data

Results flagged for a closer look

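A few values of the isolated peaks had opposite signs in both populations or at both times, and with 1 list per condition none of these differences was tested. The share of autosomal peaks that were isolated changed from 1 h to 2 h by -13.73 percentage points in MCF10A cells, from 25.88% to 12.15%, and by 5.122 points in γTubulinsh-MCF10A cells, from 22.66% to 27.78%. Seen by time, the share in γTubulinsh-MCF10A cells minus that in MCF10A cells was -3.226 points at 1 h and 15.63 points at 2 h. The number of autosomal peaks moved the opposite way to the share over time, from 850 to 1317 in MCF10A cells and from 256 to 72 in γTubulinsh-MCF10A cells. The median length beyond the shortest peak of the list, in γTubulinsh-MCF10A cells minus MCF10A cells, was 8 bp at 1 h (23 and 15 bp) and -0.5 bp at 2 h (11.5 and 12 bp).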

How the results depend on the processing

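Of 86 recomputed values, 67 moved by less than the main value's counting interval or within 1.5 times the main count, and 19 moved by more. A minimum length of 200 bp left 22 isolated peaks of MCF10A and 17 of γTubulinsh-MCF10A cells at 1 h, whereas 32 and 7 were left at 2 h, so MCF10A cells then had more at 2 h. With it, 77.3%, 70.6% and 100% of those of MCF10A at 1 h, γTubulinsh-MCF10A at 1 h and γTubulinsh-MCF10A at 2 h were shared, 19 lay within 1 Mb of an end and 0% were within 20 bp of the shortest. Scores at or above the pooled median of 85 left 133 isolated peaks of MCF10A at 1 h, 25 of γTubulinsh-MCF10A at 1 h and 13 at 2 h, a shared 31.2% of MCF10A at 2 h, and 48.6% of all within 20 bp of the shortest. With neighbours of any list, 9 remained in γTubulinsh-MCF10A at 2 h. Leaving out 1 other list in turn, the shared percent ran from 8.64 to 30.9 in MCF10A at 1 h (lowest without MCF10A at 2 h), from 37.9 to 51.7 in γTubulinsh-MCF10A at 1 h (lowest without MCF10A at 1 h), from 12.5 to 38.8 in MCF10A at 2 h (lowest without MCF10A at 1 h) and from 55 to 80 in γTubulinsh-MCF10A at 2 h (lowest without MCF10A at 2 h). No paired analysis was possible because the lists pool their libraries and no test was made, and single replicates could not be left out. The alternatives on nearest genes were not run. A place missing from a list has no value there, and what part depth had in presence calls was not tested.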
